A study of Mus musculus with 8 samples.

Results

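SMCHD1 is a non-canonical SMC protein that sits on chromatin and silences genes on the inactive X chromosome, at imprinted clusters and at clustered families such as the *Hox* genes. SMC proteins shape the folding of chromosomes, and SMCHD1 is unusual among them in carrying a GHKL-type ATPase domain. *MommeD43* is a missense allele of *Smchd1* whose amino acid change lies in the extended ATPase domain. The regions described here are the broad SMCHD1 peaks of mouse neural stem cells (NSCs) that stand alone in the genome. A region was taken when its peak was at least 600 bp long and when its window, the peak with 5000 bp on each side, shared no base with the window of another listed peak. This left 493 of 2840 regions. Of the others, 926 stood alone with a peak of 300 bp, 519 stood alone with a peak of 450 bp, and 902 shared bases with a neighbour.

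GFP ChIP-seq was performed on MNase-digested nuclei of female C57BL/6J NSCs derived from E14.5 embryos and grown for fewer than 10 passages. The antibody recognised the GFP tag that endogenous SMCHD1 carries in both genotypes. The wild-type group (*Smchd1*GFP+/+) and the *MommeD43* group (homozygous, *Smchd1*GFPMommeD43/MommeD43) held 3 lines each, and the whole-cell extract libraries, 1 for each genotype, were not analysed here. The authors merged the 3 lines into 1 log2 value, so there is no SD between lines and no test between the genotypes, and every comparison below is a description. The authors' merged value, called the level below, is the log2 read count of the window after normalization by total library size. The peaks were called earlier on wild-type SMCHD1-GFP data from NSCs, so peak length and the wild-type level are not independent measures. For the median isolated wide region, geometric means recovered from the values gave 246 reads in a wild-type library and 223 in a *MommeD43* library. Counting error at these depths puts an SD of no less than 0.08 (log2) on the difference between genotypes in that region.

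The strongest isolated wide regions lay at satellite repeats, an rRNA gene and several gene starts (plot of the strongest regions). The highest level, 13.93 in wild-type and 13.89 in *MommeD43* cells, was at a 1050 bp peak over the start of *Gm10801*, a gene model on chromosome 2. The fourth strongest was a 750 bp peak on chromosome 9, 37560 bp from the nearest protein-coding start (*Rpusd4*), with 10.46 and 10.42. The middle 300 bases of these peaks are shown because both hold the same run of 12 letters. It occurs in 4 copies in the chromosome 9 stretch and in 1 copy in the *Gm10801* stretch. Repeat-masked bases made up 100% of the former and 44.7% of the latter. On the plus strand of GRCm38 the chromosome 9 stretch reads as follows, with capitals on GAAAACTGAAAA, the run of 12 letters found most often in it. The stretch reads as the mouse major satellite, the repeat that fills pericentromeric heterochromatin.
near Rpusd4, chr9:35305276-35305575: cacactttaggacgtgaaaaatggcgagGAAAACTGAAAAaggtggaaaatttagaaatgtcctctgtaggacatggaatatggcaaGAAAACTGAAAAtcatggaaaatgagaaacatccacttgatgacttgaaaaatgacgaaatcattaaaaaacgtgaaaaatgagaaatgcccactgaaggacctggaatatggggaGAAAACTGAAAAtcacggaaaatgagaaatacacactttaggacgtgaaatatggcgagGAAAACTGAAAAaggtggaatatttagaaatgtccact

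The *Gm10801* stretch, also on the plus strand, holds those letters on the other strand, and here the capitals mark CG dinucleotides.
Gm10801, chr2:98662426-98662725: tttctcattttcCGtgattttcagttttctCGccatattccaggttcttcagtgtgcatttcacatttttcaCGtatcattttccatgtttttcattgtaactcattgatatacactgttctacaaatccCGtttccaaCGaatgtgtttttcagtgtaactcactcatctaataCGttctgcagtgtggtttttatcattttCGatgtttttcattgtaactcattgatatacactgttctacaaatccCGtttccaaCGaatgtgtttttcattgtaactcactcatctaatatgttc

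The 12 letters, searched on both strands, were present in 3 of the 493 peaks (0.609%) and in 14 of all 2840 peaks (0.493%). In the middle 300 bases, a window of equal length in every peak, the shares were 0.609% and 0.458%. The peak at *Gm21738* on chromosome 14, 3900 bp long, held 30 copies, the chromosome 9 peak held 5 and the *Gm10801* peak held 3. The levels at these 3 regions were far apart. That at *Gm21738* was 8.78 in wild-type and 8.70 in *MommeD43* cells, below that at *Gm10801* in each genotype. Of the 31-mers, 38.5% were unique in the genome in the *Gm10801* peak, 60.9% in the *Gm21738* peak and 70.0% in that on chromosome 9, against a median of 100% over the 493 peaks. All 3 regions were lower in *MommeD43*, by 0.03 to 0.07, and without the whole-cell extract it was not tested how far copies elsewhere in the genome feed these values.

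The second strongest region, on chromosome 17, had 11.56 in wild-type and 11.73 in *MommeD43* cells. Its 6150 bp peak covers an annotated rRNA gene (CT010467.1), and the peak was GC-rich, with a GC content of 63.5% and 9.74 CpG per 100 bp. By the same measure as for the satellite regions, 83.4% of the peak and 71.1% of the window were unique in the genome. How far copies elsewhere feed these levels was not tested. The middle 300 bases are shown for contrast with the satellite stretches, with 41 CG dinucleotides in capitals.
rRNA gene region, chr17:39845776-39846075: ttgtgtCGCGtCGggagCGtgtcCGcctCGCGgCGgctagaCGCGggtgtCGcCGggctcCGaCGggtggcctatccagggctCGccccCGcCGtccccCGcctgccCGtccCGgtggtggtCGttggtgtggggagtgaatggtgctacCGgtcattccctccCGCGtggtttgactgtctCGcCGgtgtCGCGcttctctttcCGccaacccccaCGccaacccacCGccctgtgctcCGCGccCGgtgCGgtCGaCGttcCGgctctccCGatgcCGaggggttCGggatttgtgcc

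The longest peak of all, 16200 bp over the start of *Sfi1*, which encodes a centrosomal protein, had 11.09 in wild-type and 10.96 in *MommeD43* cells. Its peak had 86.1% unique 31-mers and its window 78.5%, and here too the part of copies elsewhere was not tested. A 6000 bp peak over the starts of *Hjurp*, the chaperone of the centromeric histone CENP-A, and *Trpm8*, a cold-sensing channel, had 10.34 and 10.46. A 1800 bp peak near the start of *Tnrc18* had 9.86 and 10.09. It differs from the satellite stretches in having 14 CG dinucleotides in its middle 300 bases and 99.3% unique 31-mers, so its sequence is shown in the same way.
Tnrc18, chr5:142818601-142818900: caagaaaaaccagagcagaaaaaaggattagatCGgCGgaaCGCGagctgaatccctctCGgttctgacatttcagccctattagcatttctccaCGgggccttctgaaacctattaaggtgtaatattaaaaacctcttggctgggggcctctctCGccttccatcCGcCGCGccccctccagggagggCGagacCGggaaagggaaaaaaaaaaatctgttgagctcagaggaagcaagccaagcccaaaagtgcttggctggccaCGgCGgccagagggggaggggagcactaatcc

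The other strong regions were closer to one another. The 3150 bp peak over the start of *Alyref2*, an mRNA export factor, had 9.67 in wild-type and 9.92 in *MommeD43* cells. A peak 13459 bp from *Rhbg*, an ammonium transporter gene, had 9.63 and 9.68. Those with a gene start in the window at *BC025920*, *Tmem107* (a cilium protein) and *Hes7* (a factor of the segmentation clock) had 9.51, 9.52 and 9.46 in wild-type and 9.67, 9.66 and 9.63 in *MommeD43* cells. The last 3 of the 15 had their nearest protein-coding start at *Irf2bpl* (59923 bp away, 9.52 and 9.56), at *Hoxc4* (67591 bp away, 9.44 and 9.61) and at *Vax2*, an eye homeobox gene (10364 bp away, 9.36 and 9.68). Of the 15 strongest regions, the 3 at *Gm10801*, *Sfi1* and near *Rpusd4* were lower in *MommeD43* and the others were higher. On a linear scale, the 15 strongest held 7.45% of the signal of the 1938 regions that stand alone in wild-type and 7.30% in *MommeD43* cells, of which the *Gm10801* region alone held 3.73% and 3.46%. All 493 together, 25.4% of these regions, held 46.2% and 46.7%.

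**Figure D1:**
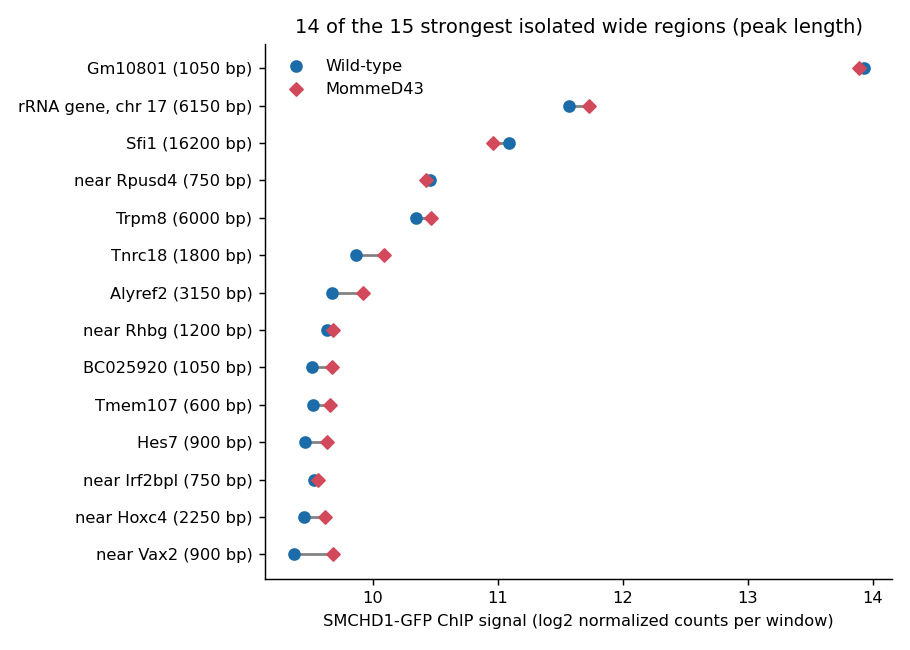
Level (log2 normalized counts of the window, 1 merged value of 3 lines per genotype, so no error bars) at 14 of the 15 strongest isolated wide regions in wild-type (circles) and *MommeD43* NSCs (diamonds), with peak lengths. The *Gm10801* region stands apart at 13.93 and 13.89, and all but 5 regions have a wild-type level under 10.

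At the other end, 4 isolated wide regions had no reads in any library of either genotype, which allows up to 3 reads per library. Of these, 2 lay on the Y chromosome of these female lines, in windows with 6.65% and 24.1% unique 31-mers. The other 2 lay by the starts of *Gatm*, a creatine synthesis enzyme, and *Pramef8*, in windows with 97.1% and 95.1% unique 31-mers. No difference between genotypes is given for these 4. The next lowest region, beside the start of *Auts2*, a gene of neuronal development, held 2.33 reads per library in wild-type and 4.82 in *MommeD43* cells.

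Across the 493 regions the median level was 8.40 in wild-type (5th to 95th percentile 6.62 to 9.34) and 8.48 in *MommeD43* cells (6.59 to 9.50). Over all 2840 regions the medians were 7.76 and 7.83. The isolated regions with a 450 bp peak, just outside the length limit, had medians of 7.55 and 7.60, and the 279 with a 600 bp peak, just inside it, had 8.26 and 8.31. Isolated regions with a 300 bp peak were lower again, at 6.50 and 6.47, whereas regions that share bases were higher, at 8.97 and 9.07. Of the 493 regions, 373 (75.7%) lay above the median of all regions in wild-type NSCs, but 5 were among the 100 strongest. The isolated wide peaks were therefore strong relative to the list as a whole without making up its top.

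Within the 493, the level rose with peak length mainly at the extremes (plot of level by peak length). The 109 regions with a 750 bp peak had medians of 8.59 in wild-type and 8.63 in *MommeD43* cells. The 66 regions from 900 to under 1200 bp had 8.69 and 8.75, and the 28 from 1200 to under 1800 bp had 8.66 and 8.78, and these 3 medians were close together beside the spread of single regions (25th to 75th percentile 8.05 to 8.89 for 750 bp peaks in wild-type). The 11 regions of 1800 bp or more had 9.46 and 9.61. Since a longer peak also has a longer window, the level was divided by window length in kb, which gave medians of 4.85 for 600 bp peaks and 5.90 for those of 1800 bp or more in wild-type NSCs. In *MommeD43* cells they were 4.90 and 6.02. Across the 493 regions length and level had a Spearman's rho of 0.25 in wild-type and 0.26 in *MommeD43* cells, and 0.21 and 0.23 per kb. Without the 11 longest it was 0.20 and 0.22. These regions share libraries and their length was set by related data, so rho is given as a description.

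**Figure D2:**
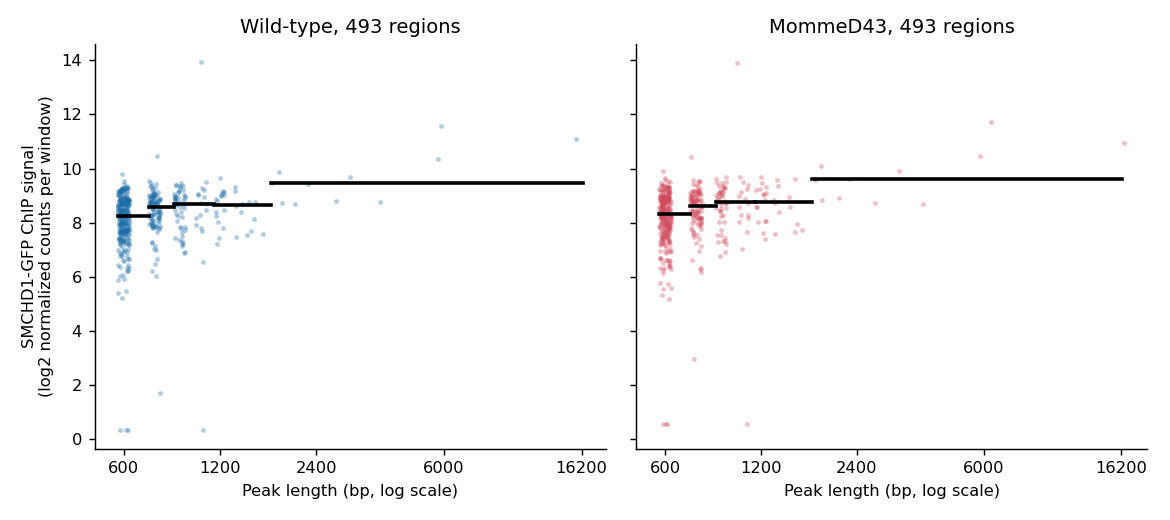
Level (log2 normalized counts of the window) against peak length (bp, log axis, points spread sideways for visibility) in the 493 isolated wide regions, with black lines at the median of each length class. The median is 8.26 in wild-type NSCs for 600 bp peaks and 9.46 for peaks of 1800 bp or more, and the 4 lowest points in each panel have no reads.

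Long peaks were of several kinds. Besides *Sfi1*, the rRNA gene, *Hjurp* and *Trpm8*, *Gm21738* and *Alyref2*, the 10 longest included a 2700 bp peak over the start of *Tshz3*, a zinc finger gene of neuronal and urinary tract development, with 8.81 in wild-type and 8.72 in *MommeD43* cells. A 2100 bp peak over the start of *Bicdl1*, a dynein adaptor, had 8.70 and 8.90. The 2250 bp peak nearest to *Hoxc4* is named above. Peaks of 1800 bp lay near the starts of *Pax5* (9.46 and 9.58), a B cell and midbrain factor, of *Lmx1a* (8.73 and 8.85), a factor of dopaminergic neurons, and of *Tnrc18*. The *Tshz3* and *Bicdl1* peaks had GC contents of 69.1% and 67.9%, whereas the *Gm21738* peak had 34.6%. The levels at *Tshz3* and *Bicdl1* were close to the median of the 750 bp class in spite of the length of their peaks.

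Sequence composition moved with the level as well. Peaks of the 493 regions had a median GC content of 45.3% and 1.33 CpG per 100 bp, against 41.0% and 0.889 over all regions. CpG islands are stretches rich in CG dinucleotides that mark many promoters. By a common definition (GC content above 50% and an observed to expected CpG ratio above 0.6, taken over the whole peak), 104 of the 493 peaks (21.1%) were island-like, against 322 of all 2840 (11.3%), 37 of 519 isolated 450 bp peaks (7.13%) and 24 of 926 isolated 300 bp peaks (2.59%). Peaks of the 902 regions that share bases were nearer, with 157 island-like (17.4%). The 104 had median levels of 8.69 in wild-type and 8.77 in *MommeD43* cells, and the other 389 had 8.28 and 8.35. Across the 489 regions with reads, Spearman's rho between the GC content of the window and the level was 0.71 in wild-type and 0.74 in *MommeD43* cells. Over the 2828 regions of the list with reads it was 0.83 in both. The part of base composition in the level was not tested.

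Regions with wide peaks had higher medians than those with narrow peaks in each class of GC content (plot of level by GC content). With a window GC content under 38%, the median in wild-type NSCs was 7.11 over 56 isolated wide regions, 6.57 over 123 with a 450 bp peak and 6.02 over 411 with a 300 bp peak. From 42% to under 46%, it was 8.39, 8.18 and 7.36 over 150, 122 and 121 regions. At 50% or more it was 9.03, 8.86 and 8.39 over 64, 22 and 12 regions. The order was the same in *MommeD43* cells, with 7.12, 6.59 and 6.03 in the lowest class and 9.14, 8.96 and 8.63 in the highest. Among the wide regions of one GC class, the rho between peak length and wild-type level was 0.35 from 42% to under 46% and 0.08 to 0.11 in the other 4 classes, against 0.25 over all 493.

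**Figure D3:**
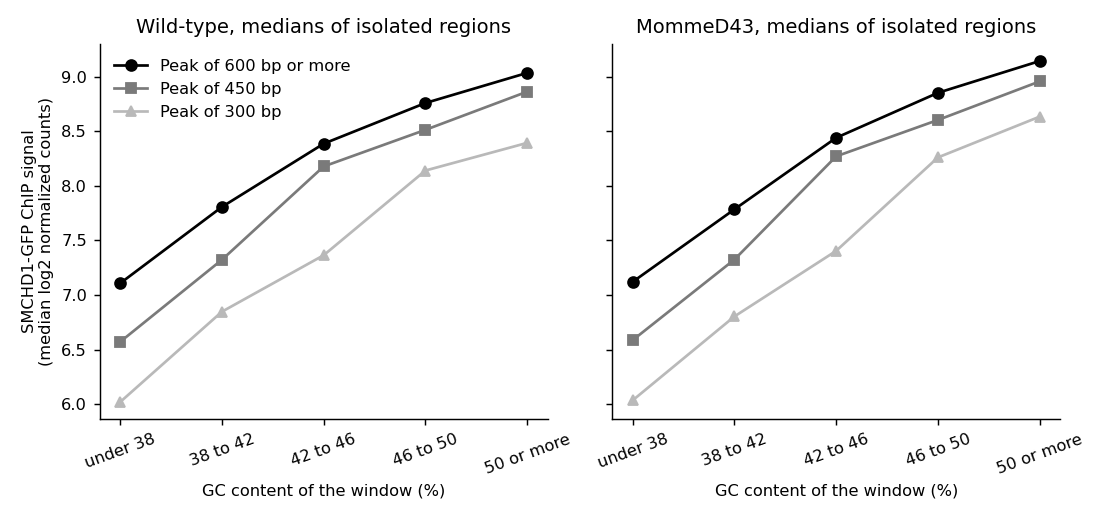
Median level (log2 normalized counts of the window) of isolated regions with a peak of 600 bp or more, 450 bp or 300 bp, in 5 classes of window GC content, in wild-type and *MommeD43* NSCs. The medians rise with GC content, from 7.11 to 9.03 for wide peaks in wild-type NSCs, and the wide peaks lie above the others in each class.

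The regions were next placed relative to gene starts. The start of a protein-coding gene was inside the peak in 63 regions (12.8%), against 162 of all 2840 (5.70%), 13 of the 519 isolated 450 bp peaks and 7 of the 926 isolated 300 bp peaks. A wider peak covers more bases, which raises this share by itself. In windows, whose lengths differ little, a start was present in 216 regions (43.8%), against 861 of all regions (30.3%), 118 with a 450 bp peak (22.7%) and 81 with a 300 bp peak (8.75%). The share was higher in the 902 regions that share bases, where 446 windows (49.4%) held a start. The 63 regions with a start in the peak had medians of 8.55 in wild-type and 8.72 in *MommeD43* cells and a peak GC content of 61.2%, and 49 of them were island-like. The 153 with a start in the window alone had 8.70 and 8.80 and a lower GC content of the peak. Regions inside a gene but away from its start (109) had 7.99 and 8.15, and the 72 regions with no start within 100 kb had 7.65 and 7.69. The remaining 96, with a start within 100 kb, had 8.43 and 8.66. Regions by a start were the highest of these classes in both genotypes, and regions far from any start were the lowest.

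Some of these gene starts belong to transcription factor genes, many of them with roles in development. Whether these genes are silent or active in the NSCs was not examined here. Of the 493 windows, 27 held the start of a homeobox gene outside the *Hox* clusters, or of a forkhead, T-box, bHLH, developmental zinc finger or nuclear receptor gene (plot of transcription factor genes). The share of all regions was not counted for these families together, so nothing is read from the number 27. Each family is set beside its own share below. The median over these 27 was 8.95 in wild-type and 9.08 in *MommeD43* cells, and 25 of the 27 lay above the wild-type median of the 493 regions. Regions by a start of any protein-coding gene were high as well. The 153 with a start in the window alone had a wild-type median of 8.70 and a 25th percentile of 8.25. The start lay inside the peak in 3 of them, *Tbx3*, *Tbx20* and *Tshz3*, and beside it in the others. Homeobox genes were at 10 windows (2.03% of the 493, against 3.70% of all regions). The wild-type median of these 10 was 8.86, lower than the 9.23 over the 105 homeobox regions of the whole list. *Pax5* and *En1*, a gene of the midbrain and hindbrain, were the highest, with 9.46 and 9.25 in wild-type and 9.58 and 9.54 in *MommeD43* cells. *Lhx8* had 9.17 and 9.25, *Pou4f1*, a sensory neuron factor, 8.96 and 9.22, and *Six6*, an eye gene, 9.04 and 9.01. *Nkx2-4*, at 7.78 and 7.81, was the lowest of the 27 in both genotypes.

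Forkhead genes were at 4 windows (0.811% of the 493, against 0.493% of all regions). *Foxc2*, a factor of lymphatic vessels, had 9.04 in wild-type and 9.09 in *MommeD43* cells, *Foxb1* 9.03 and 9.08, *Foxo6* 8.95 and 9.11 and *Foxo3* 8.93 and 9.02. The bHLH genes numbered 4 (0.811%, against 0.845%), and their levels were 9.46 and 9.63 at *Hes7*, 9.27 and 9.51 at the neuronal activity gene *Npas4*, 8.57 and 8.59 at *Npas3* and 8.48 and 8.48 at *Id4*. Zinc finger genes were at 6 windows (1.22%, against 0.739%), with 9.21 and 9.32 at *Zbtb22*, 9.11 and 9.22 at the lymphocyte gene *Ikzf3*, and 8.75 and 8.89 at *Sall1*. *Zbtb45* and *Prdm16* had 8.68 and 8.79 in wild-type and 8.91 and 8.76 in *MommeD43* cells. The nuclear receptor gene *Thra*, at 1 window (0.203%, against 0.211%), had 9.17 and 9.35. T-box genes were at 2 windows (0.406%, against 0.282%), and of these the heart gene *Tbx20* had 9.19 and 9.39.

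**Figure D4:**
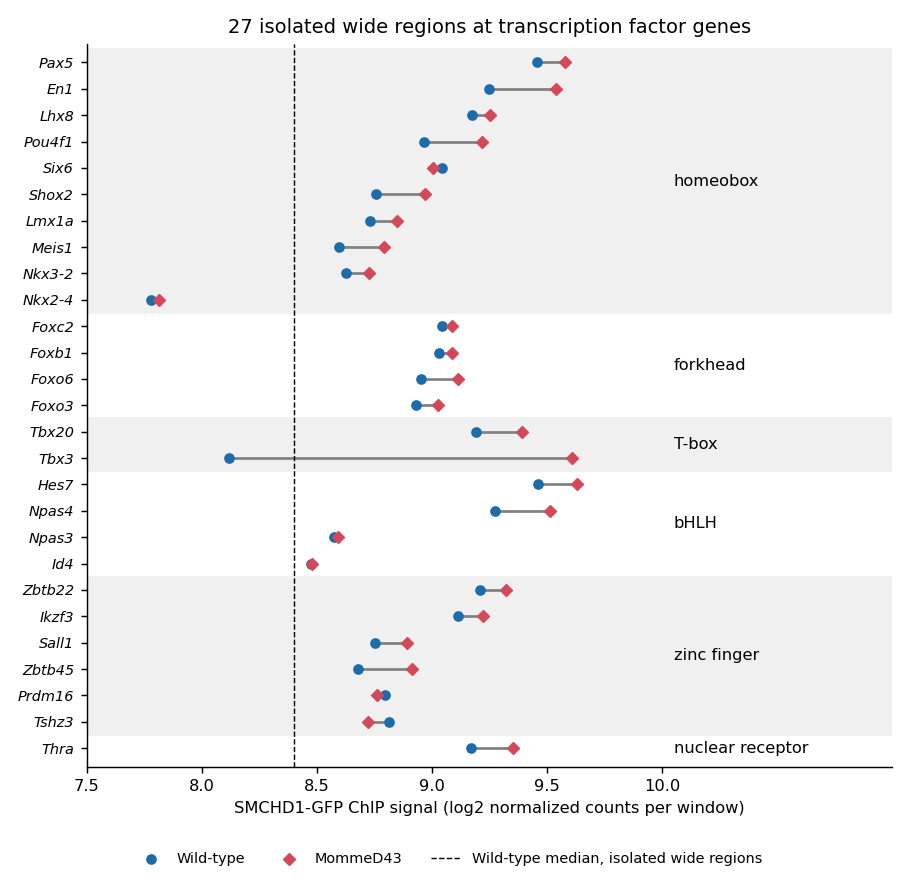
Level (log2 normalized counts of the window, 1 merged value per genotype) at the 27 isolated wide regions whose window holds the start of a transcription factor gene, in wild-type (circles) and *MommeD43* NSCs (diamonds), with a dashed line at the wild-type median of the 493 regions, 8.40. In 25 of the 27 the wild-type level is right of the line, and *Tbx3* has the widest gap, 8.12 to 9.61. The 153 regions with any protein-coding start in the window alone had a wild-type median of 8.70.

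The isolated wide regions were 17.4% of all regions, the share against which counts by gene family are read here. None of the 108 regions with a *Hox* cluster gene start in the window, the 13 with the start of an imprinted gene and the 7 with that of a clustered protocadherin was among them, and the rule leaves out windows that overlap one another, which neighbouring genes of a cluster often do. No isolated wide region held the start of a *Sox*, GATA or AP-2 gene, against 2, 2 and 10 of all regions, numbers too small to read an absence from. Signalling ligand genes were at 2 of 10 regions, the BMP antagonist gene *Nog* (8.70 in wild-type and 8.73 in *MommeD43* cells) and *Sema6a* (8.67 and 8.85). NSC genes were at 1 of 5, *Nfia* (8.80 and 8.89), a gliogenic factor. The dopamine receptor gene *Drd2* (8.24 and 8.24) was the 1 of 5 regions at neuron channel and receptor genes, and *Krt10* (8.84 and 8.79) the 1 region at a keratin gene. Of 20 regions at olfactory or vomeronasal receptor genes, 2 were isolated and wide, at *Olfr94* (7.75 and 7.85) and *Olfr1069-ps1* (6.21 and 6.30). On the X chromosome, where SMCHD1 takes part in inactivation, there were 2 isolated wide regions, with a median of 7.13 in both genotypes. The X regions of the whole list were not counted, so nothing is read from this number or level.

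Transfer RNA genes, short genes read by RNA polymerase III, were found inside some wide peaks. A tRNA gene of the RefSeq annotation lay in 9 of the 493 peaks (1.83%), against 21 of all 2840 peaks (0.739%), 10 of the 902 peaks of regions that share bases (1.11%), 1 of 519 isolated 450 bp peaks and 1 of 926 isolated 300 bp peaks. A longer peak has more room for a gene, and by window the counts were 11 of the 493 and 36 of all 2840 regions. These 9 peaks held 15 of the 403 annotated tRNA genes. The sequences below show 4 of them, with the gene in capitals and 10 bases on each side in lower case, because the same gene recurs at separate peaks. They were picked after the values were seen and are written 5′ to 3′ on the strand of the gene (GRCm38).
n-TQctg6, chr11:69124597-69124688, minus strand: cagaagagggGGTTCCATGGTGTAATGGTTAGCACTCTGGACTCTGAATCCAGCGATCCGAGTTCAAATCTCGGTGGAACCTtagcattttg
n-TQctg9, chr9:64738036-64738127, plus strand: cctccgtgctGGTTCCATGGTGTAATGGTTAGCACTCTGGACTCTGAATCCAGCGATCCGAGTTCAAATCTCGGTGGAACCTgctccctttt
n-TQttg6, chr11:95859162-95859253, minus strand: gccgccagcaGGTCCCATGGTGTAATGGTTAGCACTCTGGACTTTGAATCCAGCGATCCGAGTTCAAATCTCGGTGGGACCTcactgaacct
n-TLtag3, chr11:69124231-69124332, plus strand: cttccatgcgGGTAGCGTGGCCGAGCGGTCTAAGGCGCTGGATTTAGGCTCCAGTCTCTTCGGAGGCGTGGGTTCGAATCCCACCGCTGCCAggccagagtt

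The first 2 are glutamine tRNA genes with a CTG anticodon, identical at 72 of 72 bases though they lie on chromosomes 11 and 9. The third, a glutamine tRNA gene with a TTG anticodon, matches the first at 69 of 72 bases. The fourth is a leucine tRNA gene in the same peak as the first. The region of n-TQctg6 and n-TLtag3, which also holds the start of *Hes7*, had 9.46 in wild-type and 9.63 in *MommeD43* cells, and that of n-TQctg9 had 8.49 and 8.44. The region of n-TQttg6 had 9.15 and 9.31. Levels at the 9 regions ran from 8.24 to 9.46 in wild-type (median 8.83) and from 8.31 to 9.63 in *MommeD43* cells (median 8.93), and 7 of the 9 were higher in *MommeD43*. Small nuclear RNA genes were in 10 of the 493 windows (2.03%), against 26 of all 2840 (0.915%). They were also in 7 of 519 windows with an isolated 450 bp peak and 7 of 926 with a 300 bp peak. Inside peaks, where a longer peak again has more room, they lay in 3 of the 493 and in no other peak of the list. These were Gm24871 in the *Alyref2* peak, Gm24407 in a peak near *Sirt4* (9.36 and 9.47) and *Rnu7*, which encodes the small RNA of histone mRNA processing, in the *Grcc10* peak (9.20 and 9.33).

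The levels in *MommeD43* were compared with those in wild-type NSCs region by region (plot of differences against mean level). The median of the differences was 0.08 (log2), against 0.07 over all regions, and the central 95% of the 493 lay between -0.23 and 0.33. Of the 489 regions with reads, 355 were higher in *MommeD43* (72.6%), against 65.8% of all 2828 regions with reads, and 134 were lower. After subtracting the median difference of the whole list, 247 of the 489 were higher. The difference grew with the level of signal, as it did over the whole list. In the fifth of the regions with the lowest mean level the median difference was -0.01, and in the fifth with the highest it was 0.11. Once a fit of the difference on the level was taken away, the median was -0.01 and 224 of 488 regions were higher. The direction of the small shift therefore depends on the scaling.

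Of the 493 regions, 5 were higher in *MommeD43* by over 0.5 (1.01%, against 1.23% of all regions) and 1 was lower by over 0.5 (0.203%, against 0.458%). These shares were near or below those of the whole list. At a difference of 0.3, 19 were higher (3.85%, against 6.37%) and 5 lower (1.01%, against 3.13%). The region over the start of *Tbx3*, a T-box gene of limb and mammary development, had 8.12 in wild-type and 9.61 in *MommeD43* cells. Its counting SD was 0.07, and the 1500 bp peak is island-like, with 7.73 CpG per 100 bp. The region over the start of *Wscd2* had 7.84 and 8.48, that beside the start of *Tmem132e* had 8.22 and 8.79, and that inside *Grb10*, an imprinted gene of growth control, had 7.79 and 8.29. The *Grb10* start was 12733 bp from the peak, outside the window. All 4 peaks were island-like. The fifth region, at *Auts2*, had too few reads to give a difference (counting SD 0.66 or more). After the fit on the level, *Tbx3* (1.39) and *Wscd2* (0.57) were still over 0.5 higher, and *Tmem132e* (0.48) and *Grb10* (0.44) were not, so that 2 regions were higher and 2 lower by over 0.5. The next largest difference, 0.49, was inside *Asic2*, an acid-sensing ion channel gene (7.74 and 8.23).

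The region inside 2410141K09Rik on chromosome 13 was the one lower by over 0.5, with 6.05 in wild-type and 5.19 in *MommeD43* cells. It held 48.2 and 22.7 reads per library, a counting SD of 0.21 and 28.5% unique 31-mers in its window. The region over the start of *Epha7*, an ephrin receptor gene of axon guidance, came next, with 186 and 115 reads per library (difference -0.47, counting SD 0.10, island-like peak). It was -0.51 after the fit on the level. The regions inside *Chl1*, a neural adhesion gene (7.26 and 6.88), on chromosome 13 with no start within 100 kb (7.30 and 6.96) and 94296 bp from *Prl2c3* (6.48 and 6.16) completed the 5 lowest. The peaks of these last 3 were AT-rich, with a GC content of 30.8% to 35.3%. The *Chl1* peak had 77.5% unique 31-mers and had 58 31-mers (10.7% of its own) in common with the *Gm10801* peak.

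**Figure D5:**
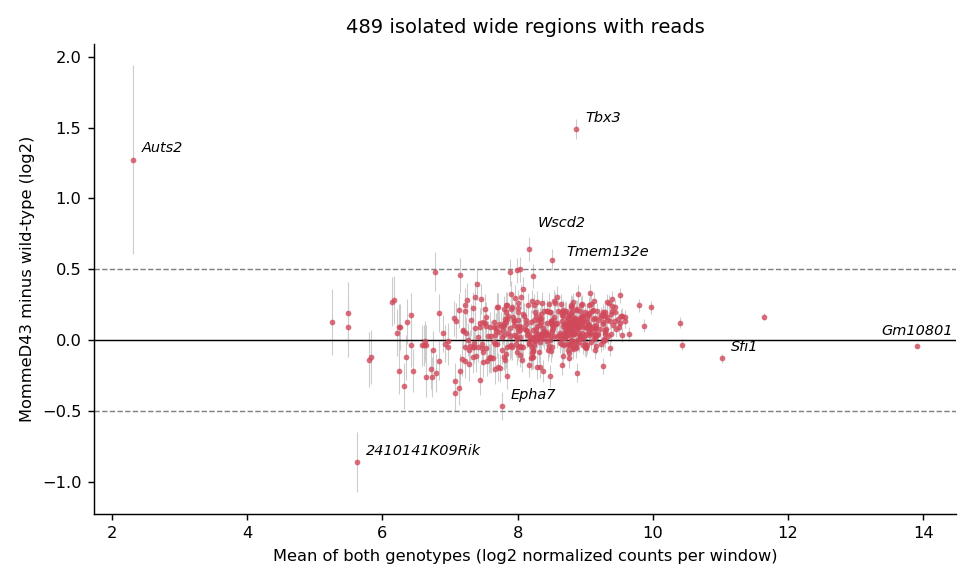
Difference in level (*MommeD43* minus wild-type, log2) against the mean of both genotypes for the 489 isolated wide regions with reads. Bars are 1 counting SD, a lower bound that leaves out the spread between lines, and dashed lines mark 0.5. *Tbx3* lies highest at 1.49, and 5 regions lie above the upper line and 1 below the lower line.

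On chromosome 7, 3 neighbouring regions, picked out after their values were seen, lay between 60238601 and 60628100 and were higher in *MommeD43* by 0.09 to 0.46, where 72.6% of the isolated wide regions with reads were higher. Their levels lay between 6.91 and 7.55 in wild-type NSCs. Their windows had 61.0%, 51.7% and 54.4% unique 31-mers, against a median of 94.5% over the 493. The smallest difference, 0.09, was below its counting SD of 0.10, and the part of copies elsewhere was not tested. The peaks of those 3 share sequence, since the first and the second have 142 31-mers in common and the second and the third 69. By chromosome, the median difference was above 0 on each autosome except chromosome 16, where 8 of 16 regions were higher. Stretches of chromosomes 5 and 11, also picked after their values were seen, held several of the largest differences. All 9 isolated wide regions between 112127951 and 133890650 on chromosome 5 were higher (median difference 0.20), among them *Tbx3*, *Wscd2* and *Auts2*. All 4 between 81583901 and 83277800 on chromosome 11 were higher (median difference 0.38), among them *Tmem132e*.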

How the data were processed

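Values come from 3 wild-type and 3 *MommeD43* NSC lines. The authors used Trim Galore 0.4.4 with Cutadapt for trimming and Bowtie2 2.3.4.1 with Samtools for mapping to GRCm38.p6, and counted extended reads in SeqMonk over published peaks with 5000 bp on each side. They deposited log2 counts, normalized by total library size and merged over the 3 lines, as 1 column for each genotype. Whether duplicate or multi-mapping reads were filtered is not given in the sources used here. Total reads per library are unknown. With this normalization, a library that has more of its reads in peaks has higher values.

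The regions and gene lists were chosen with earlier results of these data known. The text names the 15 strongest regions, the 10 longest peaks, the 5 lowest, the 5 highest and the 5 lowest differences (wild-type above 4) and up to 5 regions per list, and any other was picked after its values were seen. Some items of these lists are not reported here and were left out of the counts by gene list. Regions carry the name of the protein-coding start in the peak, else in the window, else the gene over the peak, else the nearest start within 100 kb (GENCODE M21; tRNA genes from RefSeq). Sequences come from the RefSeq copy of GRCm38.p6.

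Reads per library were recovered as geometric means. The product of reads of the 3 libraries was whole within 0.05 in 14 of 14 low wild-type values and 29 of 29 low *MommeD43* values, with 0 reads entered as 0.9. Counting SDs use these reads and leave out the spread between lines and PCR duplicates. The fit on the level was locally weighted (share 0.3) over all regions with a wild-type value above 4. Functions were tested on simulated data. Calculations used Python 3.11.15 with SciPy 1.17.1, statsmodels 0.14.6 and pandas 2.3.3.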

Additional observations from a re-analysis of the deposited data

How the results depend on the processing

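No paired analysis was possible because the lines were merged into a single column for each genotype. For this reason the replicate block and leaving out each line were not run. In the order of a minimum peak length of 900 bp, one of 450 bp, at least 5000 bp to the next region, autosomes only, wild-type value above 4 with over 50% unique sequence, and without the 5 regions with fewest reads (chosen after seeing the data), the median wild-type level of 8.40 was 8.73, 8.04, 8.39, 8.42, 8.42 and 8.42. That of *MommeD43* was 8.82 at 900 bp, 8.12 at 450 bp and 8.48 with 5000 bp to the next region, against 8.48. Per kb of window the medians were 4.98 and 5.05. The median difference of 0.08 was 0.13 at 900 bp, 0.0536 at 450 bp, 0.0057 relative to the median of all regions and -0.0118 after the fit on the level. Spearman's coefficient between length and wild-type level was 0.42 at 450 bp and between 0.18 and 0.25 under the other settings. Of the counts, the 6 regions over 0.5 apart became 11 at 450 bp and 24 at a threshold of 0.3 (19 higher and 5 lower). The 63 gene starts in peaks became 216 in windows, and 224 regions were higher after the fit on the level, against 355. What causes these shifts was not tested. Depth limits the weak regions most, since the lowest 5% of the 493 held under 71.8 reads per wild-type and under 59.9 per *MommeD43* library.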
